A study of Saccharomyces cerevisiae with 8 samples.

Results

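Codon occupancies were analyzed for the 12 codons of Phe, Tyr, His, Asn, Asp and Cys, the 6 amino acids whose only codons are 1 that ends in T and 1 that ends in C. The genetic code fixes them without any measured value, and they make up 12 of the 61 sense codons of the occupancy table and 6 of its 16 synonymous pairs that end in T and C. The table gives A-site occupancies from ribosome profiling of budding yeast in 8 libraries, 2 for each combination of strain and footprint class. eEF3d cells are strain yCW35, in which YEF3, the gene of the elongation factor eEF3, is driven by the GAL1 promoter and tagged with the auxin degron mAID, the second eEF3 gene HEF3 is replaced by KanMX, and osTIR1, which recruits the degron to degradation, is expressed from the adh1 promoter. WT cells are strain BY4741, which carries none of these changes. Per the methods, both strains were moved from galactose and raffinose to glucose before harvest, which shuts off the GAL1 promoter. The study also names auxin for the depletion, and whether WT cells received it is not stated. WT replicate 1 of CHX + TIG and both WT replicates of CHX + ANS were re-analyzed from earlier work, and whether those cells were grown in the same way was not checked here. Each strain stands for 1 genotype, and the table holds no gene level in which the depletion could be checked.

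The footprint classes report different states of the ribosome. Ribosome-protected footprints (RPFs) of 21 nt from lysates with cycloheximide and tigecycline (CHX + TIG) come from ribosomes that wait for tRNA with an empty A site. RPFs of 28 nt from lysates with cycloheximide and anisomycin (CHX + ANS) come from ribosomes that have formed the peptide bond and have not yet translocated. A codon occupancy is the ratio of footprint density at the codon in the A site to the density over the coding sequence, so 1 is the average and values below 1 mean fewer footprints than average. All values below are such ratios, or differences between them on the log2 scale where stated.

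In each of these pairs a single kind of tRNA reads both codons. Its first anticodon base, at position 34 of the tRNA, is a G that forms a Watson-Crick pair with a C as the last codon base and a G-U wobble pair with a U there, which is T in the gene. Most other pairs that end in T and C are read by tRNAs with inosine at this position, made from A. In many organisms the G of the Tyr, His, Asn and Asp tRNAs is changed to queuosine, a modification that budding yeast lacks. eEF3 is a fungal ATPase that binds near the ribosomal exit site and acts when the tRNAs and the mRNA move on by 1 codon.

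The anticodon arms of the 6 tRNAs are shown because they carry the base on which the comparison within each pair rests. Capitals mark the anticodon, whose first letter is the G that faces the last codon base, and all annotated nuclear genes of each tRNA had the arm printed here. The sequences were read from the gene strand of the R64 reference genome with exons joined and introns left out, 17 bases each, 5′ to 3′.
tRNA-Phe: ccagactGAAgatctgg
tRNA-Tyr: caagactGTAaatcttg
tRNA-His: catcgttGTGgccgatg
tRNA-Asn: tgcgactGTTaatcgca
tRNA-Asp: ggcgcttGTCgcgtgcc
tRNA-Cys: gcagattGCAaatctgt

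The gene of the first arm lies at II:36398-36488 on the forward strand, and 10 tRNA-Phe genes are annotated, all with an intron. The printed tRNA-Tyr gene lies at IV:946312-946400 on the forward strand, and all 8 tRNA-Tyr genes hold an intron. For tRNA-His the printed gene is at V:207357-207428, forward, 1 of 7 genes. For tRNA-Asn it is at III:127716-127789, forward, 1 of 10 genes. For tRNA-Asp it is at II:405960-406031, forward, 1 of 16 genes. For tRNA-Cys it is at II:643007-643078 on the reverse strand, and only 4 such genes are annotated, the fewest of these tRNAs. None of the His, Asn, Asp and Cys genes holds an intron.

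Over 6002 nuclear coding sequences, the T-ending codon was the more frequent one in every pair, from 56.6% of the pair in Tyr to 65.1% in Asp. The same held for all 10 other synonymous pairs that end in T and C, from 59.4% to 70.3%. The Asp codon GAT, at 38.1 per 1000 codons, and the Asn codon AAT, at 36.6 per 1000, were ranked 3 and 4 of 61 by frequency. The Cys codon TGC, at 4.80 per 1000, was ranked 58. These frequencies are unweighted by expression.

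In 21 nt RPFs, the 12 codons lay close together in eEF3d cells and far apart in WT cells. From the same occupancies of all codons, the paper reports that codon differences shrink in eEF3d cells in both footprint classes. It leaves absolute values uninterpreted, because under the internal normalization a rise at any codon lowers others. It also reports a sharp drop of 21 nt RPFs after the depletion. Whether that drop moves the ratios toward the average was not tested. The highest of the 12 was 1.29 and 1.93 times the lowest in the eEF3d replicates, against 3.81 and 3.42 times in the WT replicates. The SD of log2 occupancy over the 12 was 0.115 and 0.256 in eEF3d cells and 0.622 and 0.557 in WT cells, and over the other 49 codons it was 0.334 and 0.553 in eEF3d cells and 1.07 and 1.02 in WT cells. For 10 of the 12 codons the eEF3d mean was nearer to 1 than the WT mean, the exceptions being TAC of Tyr and TGT of Cys. Over all codons this held for 55 of 61.

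Most of the spread among the 12 was between amino acids rather than within pairs. The share of the variance of log2 occupancy that lay between amino acids was 68.3% and 83.4% in the eEF3d replicates, against 91.4% and 89.5% in the WT replicates. Pairs of unrelated codons would also have a share between pairs, and these shares were not tested. Each share describes 1 library, and Pearson's r between replicates over the 12 codons was 0.23 in eEF3d cells and 0.69 in WT cells. As the geometric mean of both codons, averaged over 2 libraries with its SD, the order in eEF3d cells was Cys 1.12 ± 0.113, Asp 0.939 ± 0.0339, His 0.905 ± 0.113, Tyr 0.885 ± 0.153, Asn 0.877 ± 0.182 and Phe 0.870 ± 0.0249. Only Cys stood clear of the next amino acid in eEF3d cells, and the other neighbours overlapped between replicates. In WT cells the order was Cys 1.15 ± 0.257, Tyr 0.954 ± 0.0943, His 0.758 ± 0.291, Asp 0.724 ± 0.136, Phe 0.536 ± 0.0701 and Asn 0.405 ± 0.00835. There, Asp stood clear of Phe and Phe of Asn, while Cys, Tyr, His and Asp overlapped with their neighbours. Both WT libraries had Asn lowest and Cys highest, at a ratio of 3.23 and 2.42, against 1.22 and 1.6 for the highest over the lowest amino acid in the eEF3d libraries. In WT replicate 2, however, Cys at 0.965 and His at 0.964 were nearly equal.

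Among the codons of these pairs, the 5 with the lowest mean WT occupancy had the 5 largest changes. Each change contains the WT values with a minus sign, which favours such a relation, so it is a description only. The Asn codon AAT was at 0.992 and 0.709 in the eEF3d libraries, against 0.474 and 0.498 in the WT libraries. The Asn codon AAC was at 1.02 and 0.789 in eEF3d cells, against 0.356 and 0.320 in WT cells, where it had the lowest value of all 61 codons in both libraries. At both codons the groups did not overlap, and the difference on the log2 scale was 0.79 ± 0.21 for AAT (limma SE, adjusted p = 0.000902) and 1.41 ± 0.21 for AAC (adjusted p = 9.26e-09).

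Both Phe codons followed. TTT was at 0.863 and 0.851 in eEF3d cells, against 0.658 and 0.537 in WT cells, a log2 difference of 0.53 ± 0.21 (limma adjusted p = 0.0236). TTC was at 0.842 and 0.926 in eEF3d cells, against 0.521 and 0.441 in WT cells, a log2 difference of 0.88 ± 0.21 (limma adjusted p = 0.000209). Of the Asp pair, only the C-ending codon passed the threshold. GAT was at 0.940 and 0.944 in eEF3d cells and at 0.771 and 0.871 in WT cells (log2 difference 0.20, 95% interval −0.21 to 0.61, limma adjusted p = 0.40). GAC was at 0.987 and 0.888 in eEF3d cells and at 0.511 and 0.773 in WT cells (log2 difference 0.57, interval 0.16 to 0.99, limma adjusted p = 0.0140).

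The His, Tyr and Cys codons did not pass the threshold in 21 nt RPFs. The His codon CAT was at 0.894 and 0.767 in eEF3d cells, against 0.559 and 0.972 in WT cells. The other His codon, CAC, was at 1.09 and 0.888 in eEF3d cells, against 0.546 and 0.955 in WT cells, with a log2 difference of 0.44 (limma adjusted p = 0.0548). At both His codons WT replicate 1 lay below the eEF3d libraries and WT replicate 2 lay within or above them. The Tyr codon TAT was at 0.968 and 0.787 in eEF3d cells and at 0.919 and 0.807 in WT cells. TAC of the same pair was at 1.02 and 0.767 in eEF3d cells and at 1.13 and 0.974 in WT cells. The Tyr groups overlapped at both codons. The Cys codon TGT was at 1.05 and 1.37 in eEF3d cells, against 1.30 and 0.852 in WT cells, again overlapping. TGC of the same pair was at 1.03 and 1.05 in eEF3d cells, below both WT libraries at 1.36 and 1.09, with a log2 difference of −0.22 (interval −0.64 to 0.19). For the 7 codons that did not pass, the widest interval bounds were −0.66 for TAC and 0.86 for CAC.

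**Figure D1:**
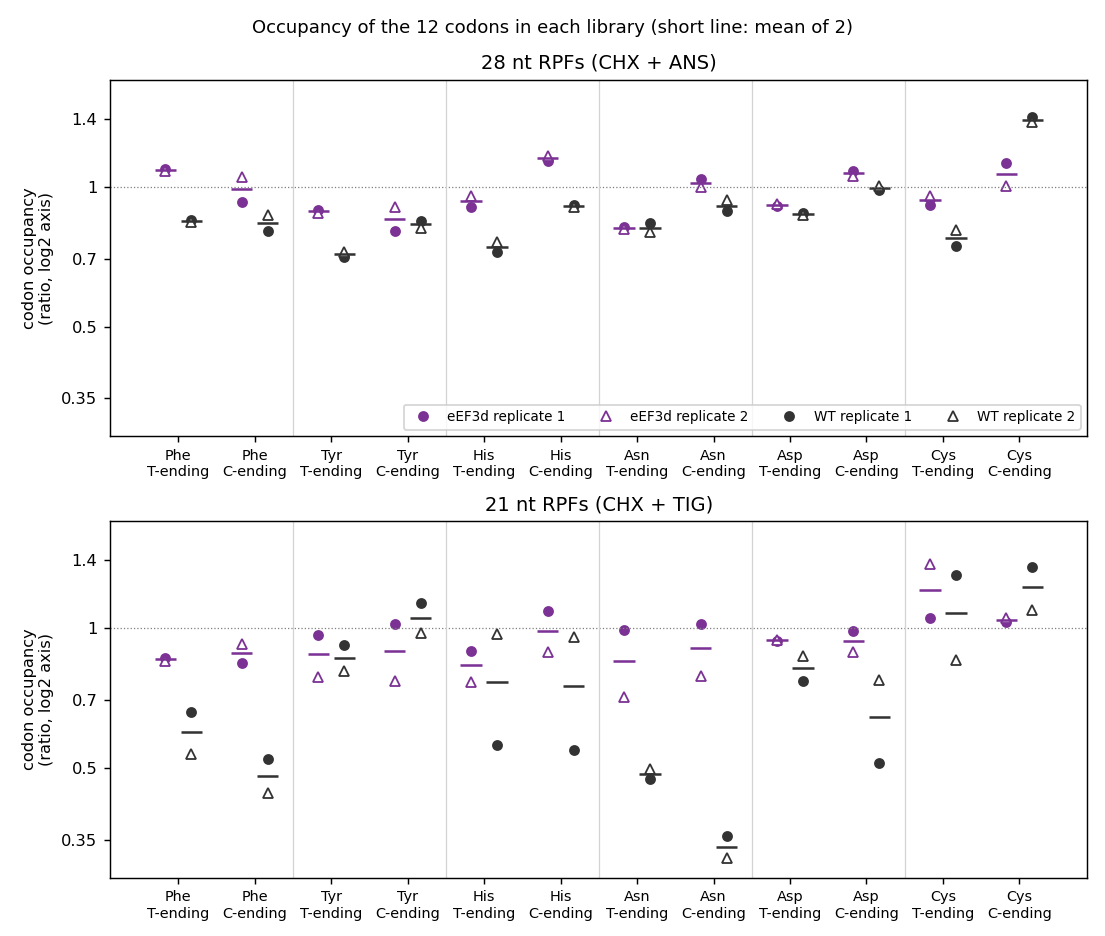
Occupancy (ratio to the coding sequence, log2 axis) of each of the 12 codons in 28 nt RPFs (top) and 21 nt RPFs (bottom), with eEF3d libraries in purple left of WT libraries in black. Circles are replicate 1, triangles replicate 2 and short lines the mean of 2 libraries. In 21 nt RPFs the WT values run from 0.320 to 1.36 and the eEF3d values from 0.709 to 1.37.

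Counted over the 12 codons in 21 nt RPFs, 5 were called higher in eEF3d cells and 0 lower (limma, two-sided, Benjamini-Hochberg adjusted p under 0.05). Over all 61 codons, 34.4% were called higher and 27.9% lower. Both eEF3d libraries lay above both WT libraries at 6 of the 12 codons, where the same held for 47.5% of all codons, and below them at 1, TGC, where the same held for 34.4%. The median log2 difference was 0.32 over the 12 and 0.17 over all 61 codons. With libraries centred on their median, the median over all codons was 0.02 and 3 members were called higher, both Asn codons and TTC, while all calls split into 12 higher and 20 lower in place of 21 and 17. With libraries divided by their mean, that median was 0.45, 8 members were called higher and all calls split into 30 higher and 6 lower.

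These calls rest on the WT libraries and on a shared SD. limma used 1 SD of 0.208 for all codons, whereas the SD between WT replicates was 0.316 over the 12 codons. Without WT replicate 1 or without WT replicate 2, 0 of the 12 were called, with adjusted p-values for AAC of 0.0816 and 0.0624, although its log2 difference was 1.49 and 1.33. Without eEF3d replicate 1, 2 were called, AAC and TTC, and without moderation of the variances 0 were called.

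Comparing the T-ending with the C-ending codon inside each library removes any scaling of the library. In 21 nt RPFs, the log2 difference T minus C was nearer to 0 in eEF3d cells than in WT cells for Phe, Tyr, Asn and Asp, farther from 0 for His and about as far for Cys, by the means of 2 libraries. Over the 6 pairs its mean size regardless of sign was 0.0869 and 0.166 in the eEF3d libraries, against 0.289 and 0.291 in the WT libraries. In both WT libraries the T-ending codon was the higher one for Phe, His, Asn and Asp and the lower one for Tyr and Cys.

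Asn had the widest gap. Its T minus C was −0.04 and −0.15 in eEF3d cells, against 0.41 and 0.64 in WT cells, where AAT thus had 1.33 and 1.55 times the occupancy of AAC. The WT value was 0.53 ± 0.12 (limma SE, adjusted p over 16 pairs = 0.000947). For Asp, T minus C was −0.07 and 0.09 in eEF3d cells, against 0.59 and 0.17 in WT cells (WT mean 0.38 ± 0.13, limma adjusted p = 0.0141). For Phe it was 0.03 and −0.12 in eEF3d cells, against 0.34 and 0.28 in WT cells (WT mean 0.31 ± 0.12, limma adjusted p = 0.0303). Tyr went the other way, with −0.07 and 0.04 in eEF3d cells, against −0.30 and −0.27 in WT cells (WT mean −0.29 ± 0.12, limma adjusted p = 0.0418). Replicates of WT agreed closely for Phe and Tyr and differed most for Asp.

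The other pairs did not pass the threshold in WT cells. For His, T minus C was −0.28 and −0.21 in eEF3d cells and 0.03 and 0.02 in WT cells, so the His codons had nearly equal occupancies within each WT library. For Cys it was 0.02 and 0.38 in eEF3d cells and −0.06 and −0.36 in WT cells. The 95% interval of the WT mean was −0.22 to 0.28 for His and −0.47 to 0.05 for Cys.

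In WT cells, 3 of the 6 pairs had T minus C above 0 and 1 below it by this test, compared with 25% and 37.5% of all 16 pairs. In eEF3d cells 0 of 6 passed, also at an unadjusted p under 0.05, compared with 6.25% of the 16. The change of T minus C, eEF3d minus WT, passed for 1 of 6 pairs, compared with 25% of the 16. That pair was Asn, at −0.62 ± 0.18 (limma adjusted p = 0.00649), with no overlap between the strains. The changes of the other pairs were −0.35 for Phe (limma adjusted p = 0.102), −0.37 for Asp (0.102), −0.27 for His (0.192), 0.27 for Tyr (0.192) and 0.41 for Cys (0.0943). The sign of each change was opposite to that of the WT gap in every pair, and because the change contains the WT values with a minus sign, this is a description only.

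Without either WT replicate, and without moderation of the variances, neither the 4 WT gaps nor the Asn change passed. The adjusted p of the Asn change was 0.0845 without WT replicate 1, the library re-analyzed from an earlier study, and 0.315 without WT replicate 2. Without eEF3d replicate 1 the Cys change also passed, at 0.59 (limma adjusted p = 0.0168).

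**Figure D2:**
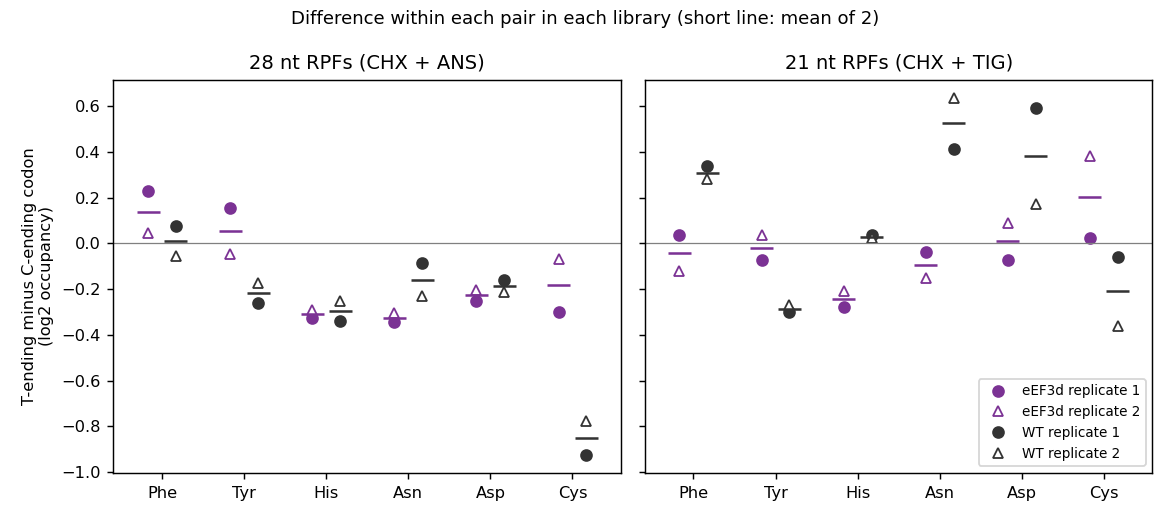
Log2 occupancy of the T-ending minus the C-ending codon for each pair in each library, in 28 nt RPFs (left) and 21 nt RPFs (right), with eEF3d in purple left of WT in black, circles for replicate 1, triangles for replicate 2 and short lines for the mean of 2. In 21 nt RPFs the WT means run from −0.29 (Tyr) to 0.53 (Asn) and the eEF3d means from −0.25 (His) to 0.20 (Cys).

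In 28 nt RPFs the picture differed. The replicates were tighter, and in WT cells the 12 codons lay closer together than in 21 nt RPFs. In eEF3d cells the SD of log2 occupancy over the 12 was 0.176 and 0.146 in 28 nt RPFs. These values lay between those of the 21 nt RPFs, 0.115 and 0.256. The SD between replicates over the 12 codons was 0.0671 in eEF3d cells and 0.0451 in WT cells on the log2 scale, against 0.199 and 0.316 in 21 nt RPFs. The highest amino acid was 1.20 and 1.20 times the lowest in the eEF3d libraries, and 1.33 and 1.37 times in the WT libraries, and Tyr was the lowest in all 4. The share of the variance between amino acids, again not tested, was 32.9% and 51.4% in eEF3d cells and 29.0% and 38.3% in WT cells. As the geometric mean of both codons, the order in eEF3d cells was Phe 1.04 ± 0.0434, His 1.03 ± 0.0280, Cys 0.997 ± 0.0259, Asp 0.987 ± 0.00722, Asn 0.912 ± 0.0169 and Tyr 0.868 ± 0.0318 (SD, n = 2). Asp and Asn stood apart there, as did Asn and Tyr, and the 4 amino acids above Asn overlapped with their neighbours. In WT cells the order was Cys 1.04 ± 0.0199, Asp 0.932 ± 0.00373, Asn 0.861 ± 0.00279, Phe 0.840 ± 0.0208, His 0.821 ± 0.0119 and Tyr 0.771 ± 0.00313. All WT neighbours were separated between replicates except Phe and His.

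The Cys pair stood apart in 28 nt RPFs, with its codons moving in opposite directions. TGT was at 0.916 and 0.956 in eEF3d cells, against 0.744 and 0.806 in WT cells, a log2 difference of 0.27 ± 0.064 (limma adjusted p = 0.0143). TGC was at 1.13 and 1.0 in eEF3d cells, against 1.41 and 1.38 in WT cells, a log2 difference of −0.39 ± 0.072 (limma adjusted p = 0.00591). Neither codon overlapped between the strains, and TGC was the only one of the 12 above 1 in both WT libraries.

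The His codons rose together and by similar amounts. CAT was at 0.906 and 0.953 in eEF3d cells, against 0.722 and 0.759 in WT cells, a log2 difference of 0.33 ± 0.060 (limma adjusted p = 0.00591). CAC was at 1.14 and 1.17 in eEF3d cells, against 0.914 and 0.906 in WT cells, a log2 difference of 0.34 ± 0.052 (limma adjusted p = 0.00311). The difference between these changes was −0.01, with a 95% interval of −0.23 to 0.20.

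Of the Phe and Tyr pairs, the T-ending codon passed the threshold and the C-ending codon did not. The Phe codon TTT was at 1.09 and 1.08 in eEF3d cells, against 0.847 and 0.839 in WT cells (log2 difference 0.37 ± 0.051, limma adjusted p = 0.00230). TTC of the same pair was at 0.929 and 1.05 in eEF3d cells, against 0.804 and 0.871 in WT cells (0.24 ± 0.081, limma adjusted p = 0.0544). The Tyr codon TAT was at 0.893 and 0.877 in eEF3d cells, against 0.706 and 0.723 in WT cells (0.31 ± 0.052, limma adjusted p = 0.00483). TAC of the same pair was at 0.802 and 0.905 in eEF3d cells, against 0.846 and 0.816 in WT cells (0.04 ± 0.074, limma adjusted p = 0.713). The test of the change of T minus C did not pass for either pair, at 0.13 for Phe (limma adjusted p = 0.387) and 0.27 for Tyr (limma adjusted p = 0.0620).

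The Asn and Asp codons, which include the largest changes of the 21 nt RPFs, did not pass the threshold here. AAT was at 0.820 and 0.809 in eEF3d cells and at 0.833 and 0.797 in WT cells, with a log2 difference of −0.0012 (95% interval −0.14 to 0.13). The C-ending Asn codon was at 1.04 and 1.0 in eEF3d cells and at 0.886 and 0.934 in WT cells, without overlap, with a log2 difference of 0.17 (0.02 to 0.31, limma adjusted p = 0.0568). GAT was at 0.910 and 0.916 in eEF3d cells and at 0.879 and 0.868 in WT cells, with a log2 difference of 0.06 (−0.06 to 0.19). GAC was at 1.08 and 1.05 in eEF3d cells and at 0.982 and 1.01 in WT cells, with a log2 difference of 0.10 (−0.03 to 0.24). The Asn groups overlapped at the T-ending codon only, and the Asp groups at neither codon.

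Counted over the 12 codons in 28 nt RPFs, 5 were called higher in eEF3d cells and 1 lower, compared with 23% and 26.2% of all 61 codons. Both eEF3d libraries lay above both WT libraries at 9 of the 12, where the same held for 39.3% of all codons, and below them at 1, where the same held for 41%. The eEF3d mean was nearer to 1 than the WT mean for 9 of the 12 codons and for 42 of 61 in all. The median log2 difference was 0.20 over the 12 and 0.03 over all 61 codons. With libraries centred on their median, that of all codons was −0.06, 4 members were called higher and 1 lower, and all calls split into 11 higher and 23 lower in place of 14 and 16. With libraries divided by their mean it was 0.16, 9 members were called higher and 1 lower, and all calls split into 26 higher and 14 lower. TGT was the only one of the 6 called codons that lost its call when a library was left out, without WT replicate 1 (limma adjusted p = 0.0908, and 0.00475 to 0.111 over all alternatives). Without moderation of the variances 3 of the 12 were called. The eEF3d libraries of this class were newly made and both of its WT libraries were taken over from earlier work, so origin and strain cannot be told apart in 28 nt RPFs.

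**Figure D3:**
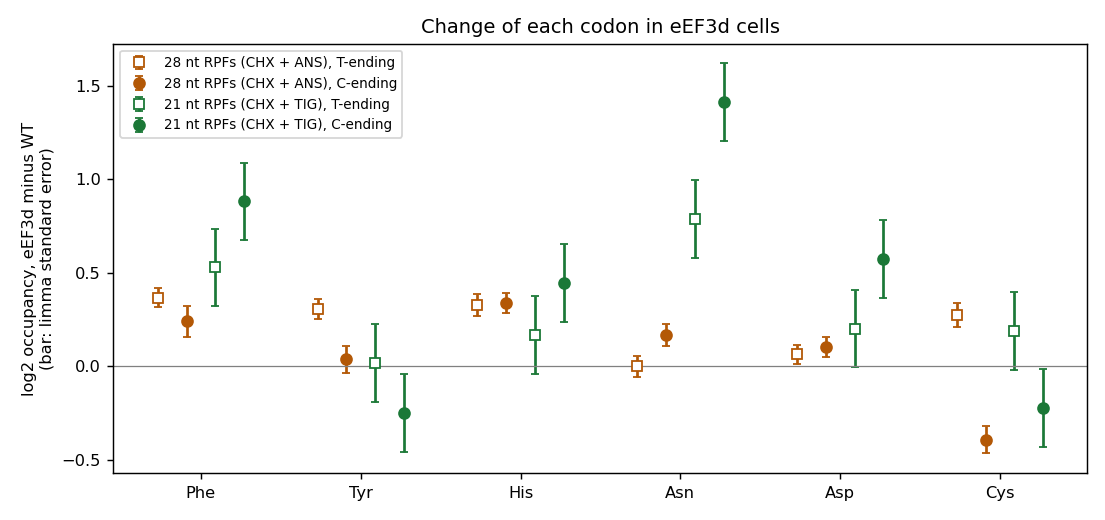
Change of log2 occupancy, eEF3d minus WT, for each of the 12 codons, with 28 nt RPFs in orange and 21 nt RPFs in green, open squares for T-ending and filled circles for C-ending codons, and bars for the limma standard error. The changes run from −0.39 (Cys, C-ending) to 0.37 (Phe, T-ending) in 28 nt RPFs and from −0.25 (Tyr, C-ending) to 1.41 (Asn, C-ending) in 21 nt RPFs.

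Within pairs, 28 nt RPFs had the T-ending codon at or below the C-ending one in most cases. For Cys, T minus C was −0.30 and −0.07 in eEF3d cells, against −0.92 and −0.77 in WT cells, where TGT had 0.527 and 0.585 times the occupancy of TGC. The WT mean was −0.85 ± 0.075 (limma adjusted p over 16 pairs = 1.56e-11). The eEF3d mean was −0.18, with a 95% interval of −0.34 to −0.03 (limma adjusted p = 0.0537). The change, eEF3d minus WT, was 0.67 ± 0.11 (limma adjusted p = 3.83e-06), and it passed without any single library as well, at 0.55 to 0.78.

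For His, Asp and Asn the T-ending codon lay below the C-ending one in all 4 libraries. For His, T minus C was −0.33 and −0.29 in eEF3d cells and −0.34 and −0.25 in WT cells. For Asp it was −0.25 and −0.20 in eEF3d cells and −0.16 and −0.21 in WT cells. The limma adjusted p of these means was 0.00136 in eEF3d cells and 0.00156 in WT cells for His, and 0.0157 in eEF3d cells and 0.0364 in WT cells for Asp. For Asn, T minus C was −0.34 and −0.31 in eEF3d cells (limma adjusted p = 0.00108), against −0.09 and −0.23 in WT cells (0.0569). The changes of these pairs were −0.01 for His, −0.04 for Asp and −0.17 for Asn, and the widest of their 95% intervals reached −0.38.

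Phe had no gap that passed, and Tyr had one that passed in WT cells. For Phe, T minus C was 0.23 and 0.04 in eEF3d cells and 0.08 and −0.05 in WT cells, and neither mean passed. For Tyr it was 0.15 and −0.05 in eEF3d cells and −0.26 and −0.17 in WT cells, where the mean was −0.22 ± 0.075 (limma adjusted p = 0.0182).

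By this test T minus C was below 0 in 3 of 6 pairs in eEF3d cells, compared with 25% of all 16 pairs, and in 4 of 6 in WT cells, compared with 56.2%. The change between strains passed for 1 of 6, Cys, compared with 18.8% of the 16. Without either eEF3d replicate, 0 of the 3 eEF3d gaps passed, at adjusted p-values of 0.0589 to 0.303. Without WT replicate 1, 1 of the 4 WT gaps passed, that of Cys. limma used 1 SD of 0.106 for all pairs here, and without moderation of the variances 0 of these gaps and changes passed.

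The footprint classes were then set against each other. In eEF3d cells T minus C in 28 nt RPFs minus that in 21 nt RPFs passed for 0 of 6 pairs, compared with 12.5% of the 16, and the largest of these differences was −0.39 for Cys (limma over all 8 libraries, adjusted p = 0.0951). In WT cells it was below 0 for 5 of 6 pairs, compared with 43.8% of the 16, and above 0 for 0 of 6, compared with 25%. In those cells the T-ending codon was thus relatively less occupied before translocation than with an empty A site for Asn, at −0.68 ± 0.12 (limma adjusted p = 0.00237), Cys, at −0.64 ± 0.16 (0.00521), and Asp, at −0.57 ± 0.14 (0.00538). The same held for His, at −0.33 ± 0.11 (limma adjusted p = 0.0225), and Phe, at −0.30 ± 0.12 (0.0471). The exception was Tyr, with a difference of 0.07 and an interval of −0.19 to 0.33.

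The class difference in WT cells depended on single libraries for most pairs. Asn kept its call without any 1 of the 8 libraries. Phe and His lost theirs without any 1 of the 4 WT libraries, and Phe also without either eEF3d library of the 28 nt RPFs. Asp lost its call without WT replicate 1 of the 21 nt RPFs (limma adjusted p = 0.0730) and without WT replicate 2 of the 28 nt RPFs (0.0551). Cys lost its call without WT replicate 1 of either class (0.0657 in 21 nt RPFs and 0.0513 in 28 nt RPFs). The classes also differ in inhibitor and in the origin of WT replicate 2, so class, inhibitor and origin cannot be told apart.

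Whether the change in eEF3d cells differs between the classes was tested as an interaction, 28 nt minus 21 nt. For single codons it passed for 3 of 12, compared with 50.8% of all 61 codons. These were AAC, at −1.24 ± 0.20 (limma adjusted p = 0.000200), AAT, at −0.79 ± 0.21 (0.00608), and TTC, at −0.64 ± 0.20 (0.0133). The call of AAC held without any 1 library, that of AAT was lost without WT replicate 1 of the 21 nt RPFs (0.0557), and that of TTC without eEF3d replicate 1 (0.0841) or WT replicate 2 (0.0810) of the 28 nt RPFs. For T minus C it passed for 0 of 6 pairs, compared with 0% of the 16, although 2 of the 6 had an unadjusted p under 0.05, Phe at 0.48 and Asn at 0.45 (limma adjusted p = 0.127 for both). Thus the Asn change of −0.62 in 21 nt RPFs and the Cys change of 0.67 in 28 nt RPFs were not shown to be particular to their class.

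The 6 pairs were set beside the other 10 synonymous pairs that end in T and C, of which 3 are read by a tRNA with G at position 34 (Leu CTN, Ser AGN and Gly) and 7 by one with A there. In 21 nt RPFs the mean T minus C over the 6 pairs was −0.03 in eEF3d cells and 0.13 in WT cells. Over the 3 other pairs with G it was 0.20 in eEF3d cells and −0.04 in WT cells, and over the 7 with A it was −0.19 in eEF3d cells and −0.47 in WT cells. In WT cells 4 of the 6 pairs lay above 0 in both libraries, 1 of the 3 others with G did, and 0 of the 7 with A did. The ends of the other pairs in WT cells were Ser AGN at 0.38 and Pro at −1.07. Pairs of both G groups overlapped in range, from −0.29 to 0.53 for the 6 and from −0.34 to 0.38 for the 3, and the pairs with A ran from −1.07 to −0.07.

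In 28 nt RPFs of WT cells the 7 pairs with A had the highest mean of the groups in place of the lowest. The mean of the 6 pairs again lay above that of the 3 others with G. Single pairs of both G groups overlapped, from −0.85 to 0.01 for the 6 and from −0.45 to −0.19 for the 3. The mean T minus C was −0.14 in eEF3d cells and −0.28 in WT cells for the 6 pairs, 0.12 in eEF3d cells and −0.33 in WT cells for the 3 others with G, and 0.03 in eEF3d cells and −0.07 in WT cells for the 7 with A. In eEF3d cells 1 of the 3 others with G lay above 0, with a mean of 0.75, and 2 lay below 0 in both libraries. The other pairs ran in WT cells from −0.45 for Gly to 0.16 for Ile. The groups differ in amino acid as well as in anticodon, and these means are given without a test.

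**Figure D4:**
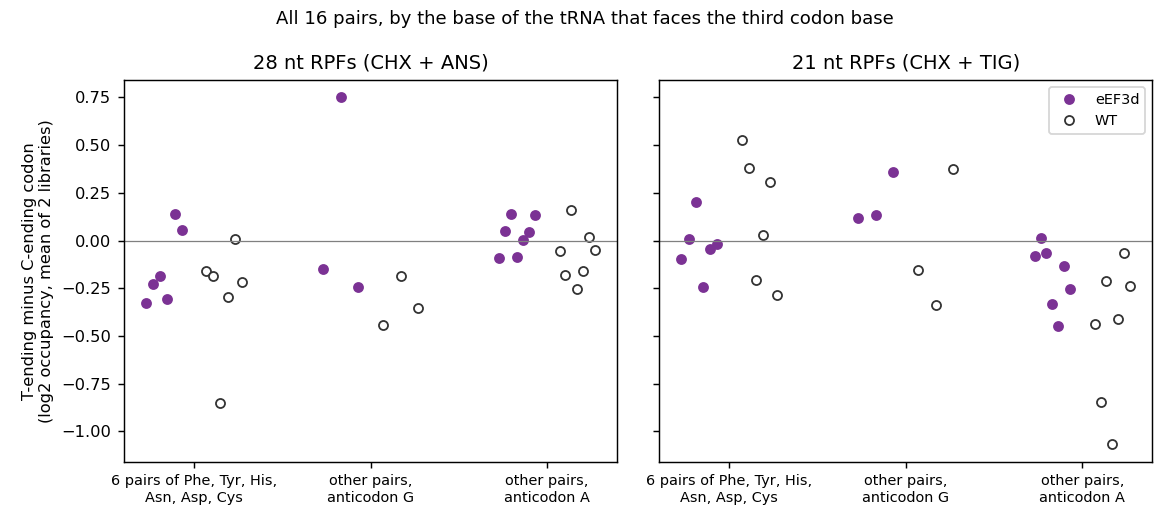
T minus C (log2 occupancy, mean of 2 libraries) for all 16 pairs that end in T and C, in 28 nt RPFs (left) and 21 nt RPFs (right), grouped as the 6 pairs described here, the 3 other pairs whose tRNA has G at the first anticodon base and the 7 whose tRNA has A. Each point is a pair, filled for eEF3d and open for WT, and in WT 21 nt RPFs the 7 pairs with A lie from −1.07 to −0.07.

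In 21 nt RPFs the codons of a pair often shifted together between replicates. In eEF3d cells the largest replicate difference, replicate 1 minus 2 on the log2 scale, was 0.48 for AAT, and its partner differed by 0.37. The eEF3d Cys codons did not share a shift, with −0.39 for TGT and −0.03 for TGC, and the Phe codons differed by 0.02 for TTT and −0.14 for TTC. In WT cells the His codons differed by −0.80 for CAT and −0.81 for CAC, and the Cys codons by 0.61 for TGT and 0.31 for TGC. The Asp codons differed by −0.18 for GAT and −0.60 for GAC, so this pair shifted less evenly. Across the 6 pairs, Pearson's r between the replicate differences of the T-ending and the C-ending codon was 0.78 in eEF3d cells and 0.88 in WT cells in 21 nt RPFs, and −0.52 in eEF3d cells and −0.77 in WT cells in 28 nt RPFs, where the differences were small. Both codons come from the same libraries, and n is 6 amino acids. The SD between replicates in 21 nt RPFs was 0.132 for T minus C and 0.199 for single codons in eEF3d cells, and 0.164 for T minus C and 0.316 for single codons in WT cells. The His level in WT 21 nt RPFs, 0.552 in the re-analyzed replicate 1 and 0.964 in the new replicate 2, therefore remains unsettled at n = 2, and the part of library origin in it was not tested.

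**Figure D5:**
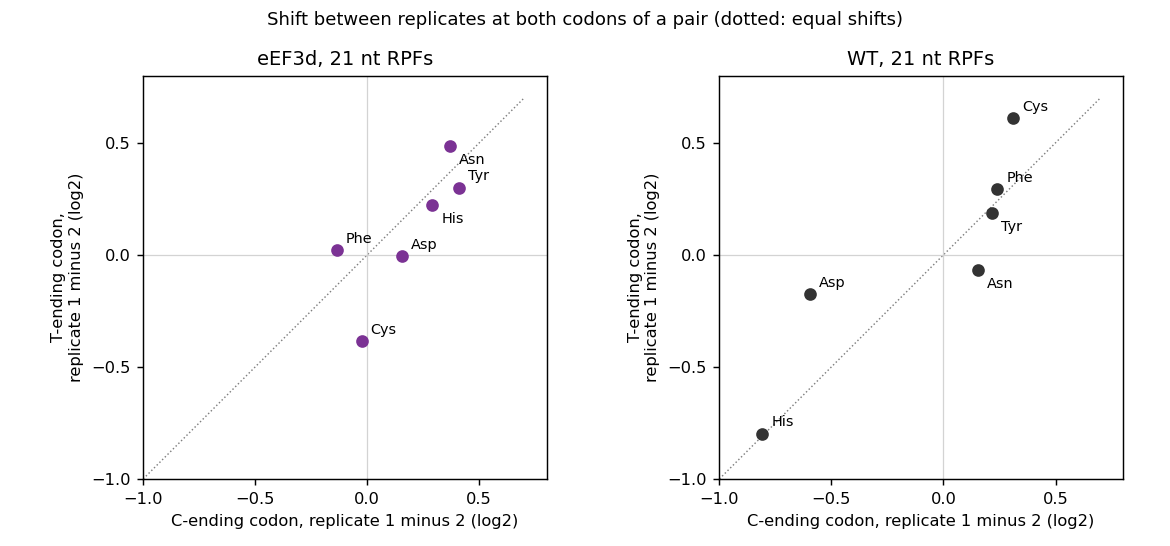
Difference between replicates (replicate 1 minus replicate 2, log2 occupancy) in 21 nt RPFs, C-ending codon on the horizontal and T-ending codon on the vertical axis, in eEF3d (left) and WT (right). Each point is an amino acid and the dotted line marks equal shifts, on which His lies in WT at −0.81 and −0.80.

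The level of an amino acid can also be set beside the supply of its tRNA, of which the gene number is a rough proxy. Across the 6 amino acids, Spearman's rho between tRNA gene number and the mean occupancy of the pair was −0.41 in eEF3d cells and −0.75 in WT cells in 21 nt RPFs, and −0.14 in eEF3d cells and 0.06 in WT cells in 28 nt RPFs. Cys, with 4 genes, had the highest occupancy in 21 nt RPFs of both strains, whereas Asp, with 16 genes, ranked above Phe and Asn, with 10 each, in both. Between codon frequency and occupancy of the 12 codons rho was −0.43 in eEF3d cells and −0.55 in WT cells in 21 nt RPFs, and −0.29 in eEF3d cells and −0.03 in WT cells in 28 nt RPFs. These are descriptions over 6 amino acids and 12 codons of the same libraries, in which the codons of a pair share a tRNA.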

How the data were processed

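Ribosome footprints of 15-34 nt were sequenced from eEF3d (yCW35) and WT (BY4741) cells, 2 libraries per strain with CHX + TIG and 2 with CHX + ANS. The submitters' processing notes name CASAVA 1.8, STAR and R64 (sacCer3). Per the methods, the authors mapped unique reads, kept 21 nt or 28 nt RPFs, assigned them to the A site and deposited 1 table of pause scores, each the ratio of footprints in a codon-wide window to the average over the gene's coding region without its ends. Its 61 codons have a value above 0 in each of 8 columns, whose names give the strain, the inhibitors and the replicate. Read numbers cannot be had from these ratios. The depth is therefore unknown, and precision rests on 2 libraries per group. Whether libraries came from separate cultures is not stated beyond the term biological replicates, so p-values measure the spread between these libraries. limma pooled this spread over codons or pairs, fully for codons in 21 nt RPFs and for T minus C in 28 nt RPFs. Pooling treats codons as independent, whereas codons of a pair often shifted together in 21 nt RPFs.

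Log2 occupancy was tested over all 61 codons, and log2 T minus C over all 16 pairs, with limma 3.58.1 in R 4.3.3 (lmFit, eBayes), within each RPF class with its 4 libraries, and over all 8 libraries for contrasts between classes. Tests were two-sided with Benjamini-Hochberg adjustment over 61 or 16 and a threshold of 0.05. No codon was filtered and no pseudocount was added. The steps were tested on simulated data with independent noise and the same SD for all codons of an RPF class. Shared shifts of codons and unequal spreads were not covered by that test. Descriptive values were computed with Python 3.11.15, numpy 2.4.6, pandas 2.3.3 and scipy 1.17.1. tRNA genes (275 nuclear) and codon frequencies (6002 coding sequences) were read with Biopython 1.88 from the RefSeq R64 assembly, the assembly that the authors used with another annotation release. Anticodons were found by the arm sequence, among candidates that match the annotated amino acid.

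All 12 codons and 6 pairs are named. Of the other 10 pairs, the highest and lowest by WT mean in each class are named. The genetic code alone fixes the members, but this set of codons, the lists and the tests were chosen with earlier results of these data known. Alternatives were a replicate block, a pseudocount of 0.1, no moderation, a mean-variance trend, other scalings, weights by class and leaving out each library, with crossed replicate numbers added after seeing the data. Footprint sizes were not analysed here.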

Additional observations from a re-analysis of the deposited data

Results flagged for a closer look

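Some results differed between groups by a test of the difference itself. The difference T minus C of Asn differed between strains in 21 nt RPFs, by −0.62 in eEF3d minus WT, with a limma adjusted p of 0.00869 to 0.315 over its alternatives. The same measure differed between strains for Cys in 28 nt RPFs, by 0.67, with a limma adjusted p of 3.00e-06 to 0.321 over its alternatives, the highest of them without moderation of the variances.

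The change of single codons, eEF3d minus WT, differed between 28 nt and 21 nt RPFs by −1.24 for AAC, −0.79 for AAT and −0.64 for TTC, with a highest limma adjusted p over the alternatives of 0.0257, 0.0741 and 0.0841 in that order. AAC is the codon with the lowest 21 nt occupancy in WT cells, at 0.356 and 0.320, and its 28 nt occupancy in the same strain was 0.886 and 0.934.

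In WT cells T minus C differed between 28 nt and 21 nt RPFs by −0.30 for Phe, −0.64 for Cys, −0.33 for His, −0.68 for Asn and −0.57 for Asp. The classes differ in inhibitor as well as in RPF length, and their parts were not told apart. No group held enough libraries to look for single outlying ones.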

How the results depend on the processing

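The table gives no read numbers, so what depth limits is unknown, and 2 libraries per group limit every test. Replicate numbers have no stated pairing, and same-numbered libraries deviated with r = −0.17 in 21 nt and −0.03 in 28 nt RPFs. With a replicate block, 1 of the 4 WT gaps of 21 nt RPFs passed, 3 of the 5 class differences in WT and 2 in place of 1 changes of T minus C in 28 nt RPFs. Crossed replicate numbers, chosen after seeing the data, gave 1 in place of 0 class differences in eEF3d cells. Without moderation of the variances, the counts of members passing were 0 for codons in 21 nt RPFs, 0 for each count of T minus C in either class, 3 for codons in 28 nt RPFs, 1 for the interaction and 2 for the class difference in WT. Scaling by the median gave 3 codons in 21 nt RPFs, and scaling by the mean gave 8 there and 10 in 28 nt RPFs. The cause was not tested.

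Leaving out each library gave 0 to 5 codons in 21 nt RPFs and 5 to 7 in 28 nt RPFs. It gave 0 to 1 gaps in eEF3d and 0 to 4 in WT in 21 nt RPFs, and 0 to 4 in eEF3d and 1 to 3 in WT in 28 nt RPFs. For changes of T minus C it gave 0 to 2 in 21 nt RPFs and 1 in 28 nt RPFs. For the interaction it gave 2 to 5 codons and 0 to 2 pairs, and for the class difference 0 to 1 pairs in eEF3d and 1 to 5 in WT.

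Of single values, 790 kept direction and side of the threshold, 90 lost and 29 gained a call, and 33 changed sign, none of them past the threshold before. Median scaling turned TAT to −0.13 in 21 nt RPFs and TAC to −0.051 and GAT to −0.023 in 28 nt RPFs. Mean scaling turned TAC to 0.037 and TGC to 0.061 in 21 nt RPFs, AAT to 0.13 in 28 nt RPFs and the interaction of TGT to −0.066. The pseudocount turned the T minus C interaction of Tyr to −0.00128. Leaving out libraries, the ranges across 0 in 21 nt RPFs were −0.13 to 0.17 for TAT, −0.12 to 0.49 for TGT and −0.23 to 0.57 for CAT, and for T minus C in eEF3d −0.072 to 0.036 for Tyr, −0.12 to 0.035 for Phe and −0.071 to 0.089 for Asp. In 28 nt RPFs they were −0.051 to 0.12 for TAC, −0.033 to 0.031 for AAT, and for T minus C −0.046 to 0.15 for Tyr in eEF3d, −0.055 to 0.076 for Phe in WT and −0.055 to 0.032 for the change of His. For the interaction they were −0.22 to 0.39 for TGT, −0.51 to 0.30 for CAC, −0.24 to 0.56 for CAT and −0.10 to 0.10 for T minus C of Tyr, and for the class difference of Tyr in eEF3d −0.028 to 0.17.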
